A study of Caenorhabditis elegans with 4 samples.

Results

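Glutathione S-transferases (GSTs) are enzymes that join the thiol tripeptide glutathione to reactive compounds, or reduce substrates with it, and so take part in the clearance of foreign and oxidised molecules. In Caenorhabditis elegans the family is large and includes omega (gsto), kappa (gstk) and zeta class enzymes besides the many genes named gst. Several gst genes are known targets of SKN-1, the worm counterpart of the mammalian Nrf transcription factors, and a gst-4 reporter is a standard readout of that response. Nitric oxide (NO) is a reactive gas that glutathione can trap as S-nitrosoglutathione.

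The family was taken as every locus of the deposited comparison with a gene name starting gst-, gsto- or gstk-, which gave 47 of 16562 loci holding 48 GST genes. Whole wild-type worms at L4, the last larval stage, were compared in 2 groups of 2 samples each. In the NO group, worms had received the NO donor MAHMA NONOate at 1 mM, followed by 4 h of recovery at 20 °C before RNA was isolated. The control group carries the agent label control, and its protocol text is the one given for treated worms, so effects of handling or of the spent donor compound cannot be told apart from those of NO. Both groups share the WT genotype label and were grown on E. coli OP50. The table holds 1 abundance per condition, read as FPKM (a fragment count scaled for transcript length and sequencing depth), so levels of different genes can be compared per length. Values of single libraries, their depth and their replicate spread were not analysed here. Each standard error (SE) and 95% interval was derived from the deposited fold and test statistic. The labels do not state whether samples of a group were separate cultures, and the p-values may then reflect technical variation alone.

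Among markers fixed for the worm's tissues, all 27 measured genes of intestine, muscle, neurons, hypodermis, pharynx, germline, sperm and oocytes were above 0 in both conditions. At an adjusted p of 0.05, where 0.399% of all loci were called, 0 of these markers were. The hypodermal markers rol-6 (7.88 FPKM after NO, 2.55 FPKM in control, unadjusted p = 0.0203) and sqt-3 (20.5 FPKM after NO, 9.36 FPKM in control, unadjusted p = 0.0272) had the largest deposited folds among them. Summed levels were 29.5 FPKM after NO and 12.6 FPKM in control for 3 hypodermal markers. Of these, dpy-7, joined with glb-16, had only 1.17 FPKM after NO and 0.691 FPKM in control. The loci of unc-54, snb-1 and myo-2 were also joined with another gene. For 3 sperm markers the sums were 288.1 FPKM after NO and 221.2 FPKM in control. For 4 oocyte and yolk markers they were 5880 FPKM after NO and 7676 FPKM in control. In whole worms, fewer cells of a type and less RNA per cell cannot be told apart, and the part of these shifts in the GST values was not tested.

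After NO, 2 GST genes rose and 0 fell at an adjusted p of 0.05 in the authors' deposited test, where 0.386% of all loci were called higher and 0.0121% lower. The induced genes were gst-35 and gst-4, and they differed in their control level. gst-35 had 41.7 FPKM after NO, against 4.55 FPKM in control worms, in the authors' deposited table. It was near the middle of the family in control worms, at rank 26 of 47 where the family median was 5.03 FPKM, and stood at rank 10 after NO. Its deposited fold was 9.16 (log2 fold 3.19, SE 0.57, 95% interval 2.08 to 4.31, adjusted p = 2.43e-05). gst-4, whose product resembles the vertebrate haematopoietic prostaglandin D synthase, had 134.9 FPKM after NO and 32.99 FPKM in control worms in the deposited table. It was already moderately abundant in control worms, at rank 12, and became the third most abundant member after NO, at rank 3. Its deposited fold was 4.09 (log2 fold 2.03, SE 0.40, 95% interval 1.24 to 2.82, adjusted p = 0.000375). In FPKM, gst-4 gained more than any other member, 101.9 against 37.1 for gst-35, although gst-35 had the larger fold. The uncalled gst-5 and gst-1 also gained more than gst-35, 52.3 and 41.4 FPKM. A difference between the folds of gst-4 and gst-35 was not tested, since both genes were picked for their size. In the reference, gst-4 shares 65 exonic bases with dhs-12 on the same strand. dhs-12 itself was listed at 91.7 FPKM after NO and 87.9 FPKM in control (log2 fold 0.06, SE 0.59).

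**Figure D1:**
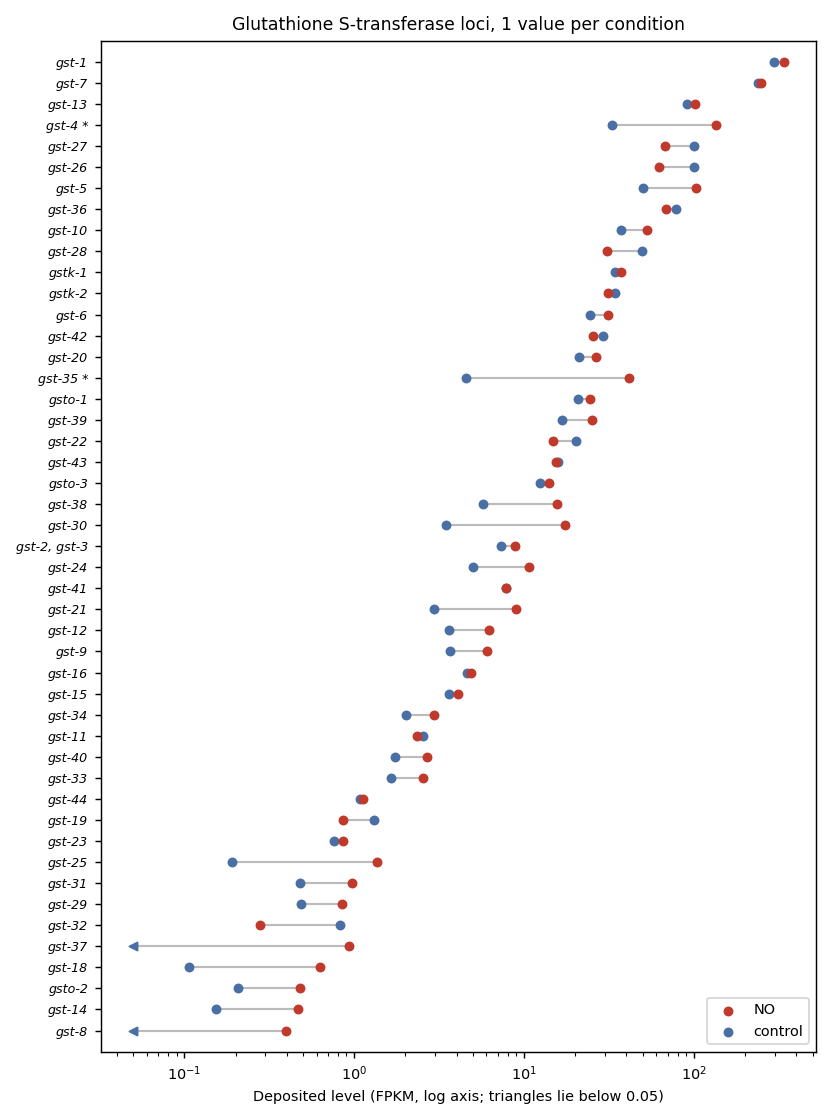
Deposited level of each of the 47 GST loci in FPKM on a log axis, 1 point for NO and 1 for control, ordered by the mean of both, with a star at the 2 loci called at an adjusted p of 0.05. Most pairs lie close together, while gst-35 (41.7 after NO and 4.55 in control) and gst-4 (134.9 and 32.99) are widely apart. Gaps wider than that of gst-4 are also seen at the uncalled gst-30 and, at low levels, at gst-18, gst-25, gst-8 and gst-37. Triangles stand for control values under 0.05 FPKM.

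gst-30 lay just outside the threshold. It had 17.5 FPKM after NO and 3.47 FPKM in control in the deposited table, a fold of 5.03 (log2 fold 2.33, SE 0.63, adjusted p = 0.0525). Its fold was larger than that of gst-4 but rested on a lower level and a wider error. Adjusting the deposited p-values again over the 14285 loci averaging 1 FPKM or more gave gst-30 an adjusted p of 0.0453, so its call depends on which loci are counted.

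A further 4 members reached only an unadjusted p of 0.05, all with the higher value after NO. With gst-35, gst-4 and gst-30 they made 7 members higher (14.9%) and 0 lower at that level, where the background was 2.75% of all loci higher and 0.338% lower. gst-38 had 15.5 FPKM after NO and 5.72 FPKM in control in the deposited table (log2 fold 1.44, SE 0.56, unadjusted p = 0.0108, adjusted p = 0.728). gst-5 had 102.7 FPKM after NO and 50.4 FPKM in control in the deposited table (log2 fold 1.03, SE 0.45, unadjusted p = 0.0212). gst-21 had 8.99 FPKM after NO and 2.93 FPKM in control (log2 fold 1.62, SE 0.73, unadjusted p = 0.0276). gst-37 was listed at 0.935 FPKM after NO and at 0 in control, with an unadjusted p of 0.00703 and an adjusted p of 0.56, so no fold can be given. None of these 4 passed the adjustment over all loci. gst-24 came next, at 10.7 FPKM after NO and 5.03 FPKM in control (log2 fold 1.09, SE 0.60, unadjusted p = 0.0679).

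**Figure D2:**
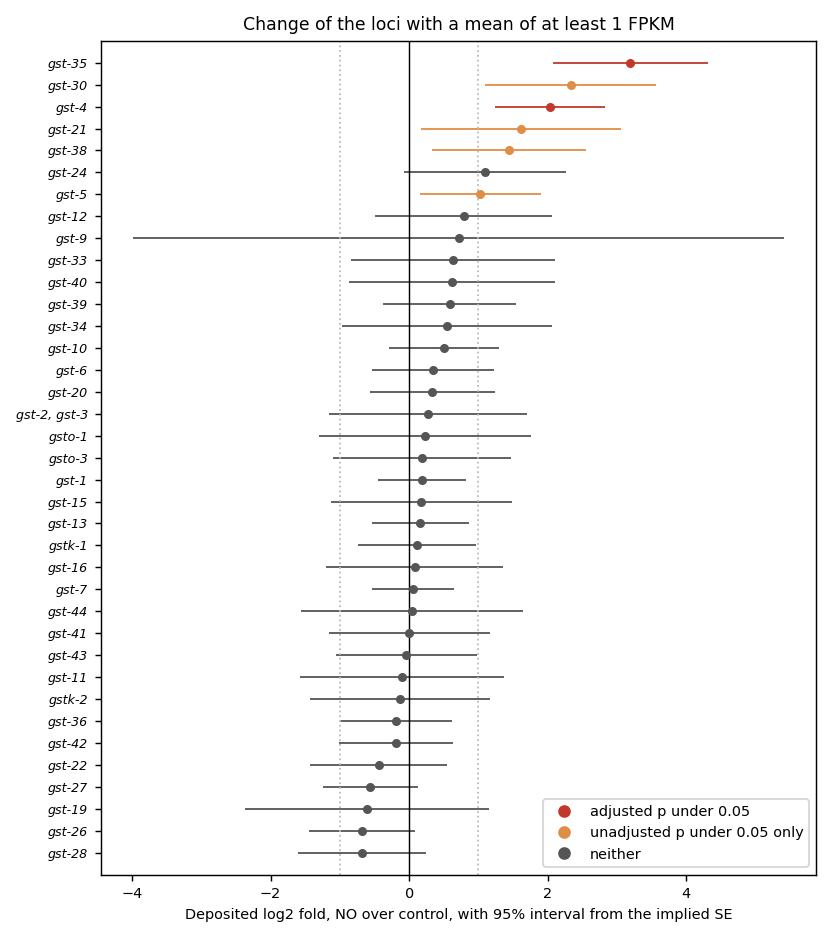
Deposited log2 fold (NO over control) of the 37 GST loci averaging 1 FPKM or more, with 95% intervals from the implied SE, dotted lines marking a 2-fold change either way. Only the intervals of gst-35, gst-30 and gst-4 lie wholly above a log2 fold of 1, and at the lower end the intervals of gst-28, gst-26 and gst-27 reach past 0.

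Several of the abundant GST transcripts had intervals that left out a 2-fold change, while others did not. The 8 loci with the highest means held 70.0% of the family's summed FPKM after NO and 72.1% in control, and gst-4 was the 1 called locus among them. gst-1, which encodes a pi-class enzyme, was the top member in both conditions, at 338 FPKM after NO and 297 FPKM in control in the deposited table. Its log2 fold of 0.19 had a 95% interval from -0.44 to 0.82. gst-7 followed at 247 FPKM after NO and 239 FPKM in control (log2 fold 0.05, interval -0.54 to 0.64). gst-13 had 101.6 FPKM after NO and 90.9 FPKM in control (log2 fold 0.16, interval -0.54 to 0.86). gst-36 was at 68.7 FPKM after NO and 78.3 FPKM in control (log2 fold -0.19, interval -0.99 to 0.62). For these 4 and gstk-1 the interval left out a 2-fold change in either direction, which was so for 5 of the 37 GST loci averaging 1 FPKM or more. For the remaining uncalled loci the interval reached past a 2-fold change in at least 1 direction. gst-10, whose product is known to conjugate the lipid peroxidation product 4-hydroxynonenal, was at 52.9 FPKM after NO and 37.4 FPKM in control (log2 fold 0.50, SE 0.40, interval -0.29 to 1.29).

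The abundant members with the lowest ratios were gst-26, gst-27 and gst-28. gst-26 had 62.5 FPKM after NO and 100.03 FPKM in control in the deposited table (log2 fold -0.68, SE 0.39, unadjusted p = 0.0825). gst-27 had 67.6 FPKM after NO and 99.5 FPKM in control (log2 fold -0.56, SE 0.35, unadjusted p = 0.11), and gst-28 had 30.6 FPKM after NO and 49.2 FPKM in control (log2 fold -0.68, SE 0.47, unadjusted p = 0.147). None of the 3 was called, and how reads were divided between these neighbouring relatives is not given in the sources used here.

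Summed over all 47 loci, GST transcripts had 1604 FPKM after NO and 1369 FPKM in control, a ratio of 1.17, where the sum over all loci of the table had a ratio of 0.947. GST loci thus held 0.125% of all FPKM after NO and 0.101% in control. Without gst-35 and gst-4 the family sums were 1428 FPKM after NO and 1332 FPKM in control, a ratio of 1.07. The share of gst-4 within the family was 8.41% after NO and 2.41% in control, and that of gst-35 was 2.60% after NO and 0.332% in control. gst-1 held the largest share in both conditions, 21.1% after NO and 21.7% in control. No error can be attached to these sums, because single libraries were not analysed here.

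More members were listed higher after NO than lower. Of all 47 loci, 36 had the higher level after NO and 11 the lower, and without gst-35 and gst-4 the counts were 34 higher and 11 lower of 45. Over the 37 GST loci averaging 1 FPKM or more the median log2((NO + 1)/(control + 1)) was 0.19, and 27 ratios (73.0%) were above 0. The same median over the 14285 loci kept was -0.03, with 46.3% of ratios above 0. Without the 2 called members, 25 of 35 GST ratios (71.4%) were above 0, with a median of 0.18. At least a 2-fold higher value was listed for 7 of the 37 GST loci (18.9%), 5 of them uncalled, against 6.21% of all kept loci. A fold of 0.5 or lower was listed for 0 of the 37. The share of all kept loci with so low a fold was not computed, so this 0 is not read as a trait of the family. The GST median exceeded that of all loci in each range of mean abundance. It was 0.31 at 1 to 10 FPKM (14 loci, 12 above 0), where all loci had 0.11. At 10 to 100 FPKM it was 0.18 (21 loci, 13 above 0), where all loci had -0.08, and both called members fell in this range, in which 0.658% of all loci were called. At 100 FPKM and over it was 0.12 for the 2 loci gst-1 and gst-7, where all loci had -0.14. These medians and counts describe the family and carry no test.

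**Figure D3:**
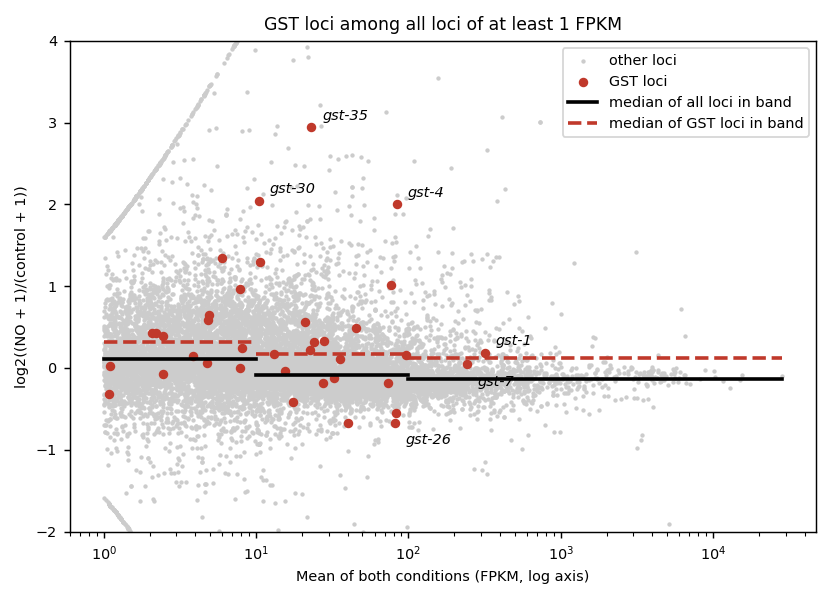
log2((NO + 1)/(control + 1)) against the mean of both conditions (FPKM, log axis) for 37 GST loci and all other loci of at least 1 FPKM, with 240 other loci outside the drawn range of -2 to 4. In each abundance band the dashed GST median (0.31, 0.18 and 0.12 from low to high) lies above the solid median of all loci (0.11, -0.08 and -0.14).

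Omega and kappa loci were taken by the names gsto and gstk, and zeta loci as gst-42 and gst-43. The remaining loci were not sorted by class. Members of the omega, kappa and zeta classes so taken gave 0 calls among 7 loci, where 0.399% of all loci were called in either direction. At that share, 0 calls among 7 loci says nothing particular about these classes. gsto-1, an omega-class enzyme, had 24.4 FPKM after NO and 20.8 FPKM in control in the deposited table (log2 fold 0.23, SE 0.78). gsto-3 had 14.07 FPKM after NO and 12.3 FPKM in control (log2 fold 0.19, SE 0.66), and gsto-2 was listed at only 0.477 FPKM after NO and 0.207 FPKM in control. The kappa class acts in mitochondria and peroxisomes. gstk-1 had 37.1 FPKM after NO and 34.3 FPKM in control (log2 fold 0.11, SE 0.43), and gstk-2, whose locus also holds the piRNA gene 21ur-14659, had 31.2 FPKM after NO and 34.1 FPKM in control (log2 fold -0.13, SE 0.67). gst-42 encodes the zeta-class maleylacetoacetate isomerase of tyrosine breakdown, and had 25.6 FPKM after NO and 29.3 FPKM in control (log2 fold -0.20, SE 0.42). gst-43, a relative of gst-42, had 15.3 FPKM after NO and 15.7 FPKM in control (log2 fold -0.04, SE 0.52). All log2 folds of the 6 loci of these classes averaging 1 FPKM or more lay between -0.20 and 0.23, each smaller than its SE. The other 40 loci had log2 folds from -0.68 to 3.19 at that mean or above, with a median log2 ratio of 0.32 over 31 loci. A difference between the classes was not tested.

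GST genes often lie side by side, and the reference annotation placed 25 of its 49 GST genes in 4 runs with at most 2 other protein-coding genes between neighbours. The neighbours of gst-35 and gst-4 were not called, where 0.399% of all loci were called in either direction. The run of 9 genes that ends with gst-35 starts with gst-26, gst-27 and gst-28, the abundant members with lower values, and its sum was 232.6 FPKM after NO and 273.9 FPKM in control. gst-34, next to gst-35, had 2.93 FPKM after NO and 2.004 FPKM in control (log2 fold 0.55, SE 0.77), and gst-39 in the middle had 25.2 FPKM after NO and 16.8 FPKM in control (log2 fold 0.59, SE 0.49). Within this run log2 folds of loci averaging 1 FPKM or more ranged from -0.68 to 3.19. The short run with gst-4 holds gst-2 and gst-3, joined in 1 locus at 8.83 FPKM after NO and 7.33 FPKM in control (log2 fold 0.27, SE 0.73). In the other run of 9 genes 7 of 8 measured loci had the higher level after NO and 0 were called, with sums of 54.5 FPKM after NO and 39.5 FPKM in control. Its gst-17 was not analysed here. The run of gst-6, gst-7, gst-8 and gst-9 gave 0 calls and drew most of its level from gst-7, and its sums were 284.6 FPKM after NO and 266.8 FPKM in control. Of the 39 measured loci that directly flank a GST gene without belonging to the family, 0 were called, where 0.399% of all loci were. Of these 39, 1 was higher and 0 lower at an unadjusted p of 0.05, where 2.75% of all loci were higher and 0.338% lower. At those shares, such counts among 39 loci or within a run say nothing particular about the neighbours. The median log2 ratio of the flanking loci was 0.01 over the 34 averaging 1 FPKM or more.

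**Figure D4:**
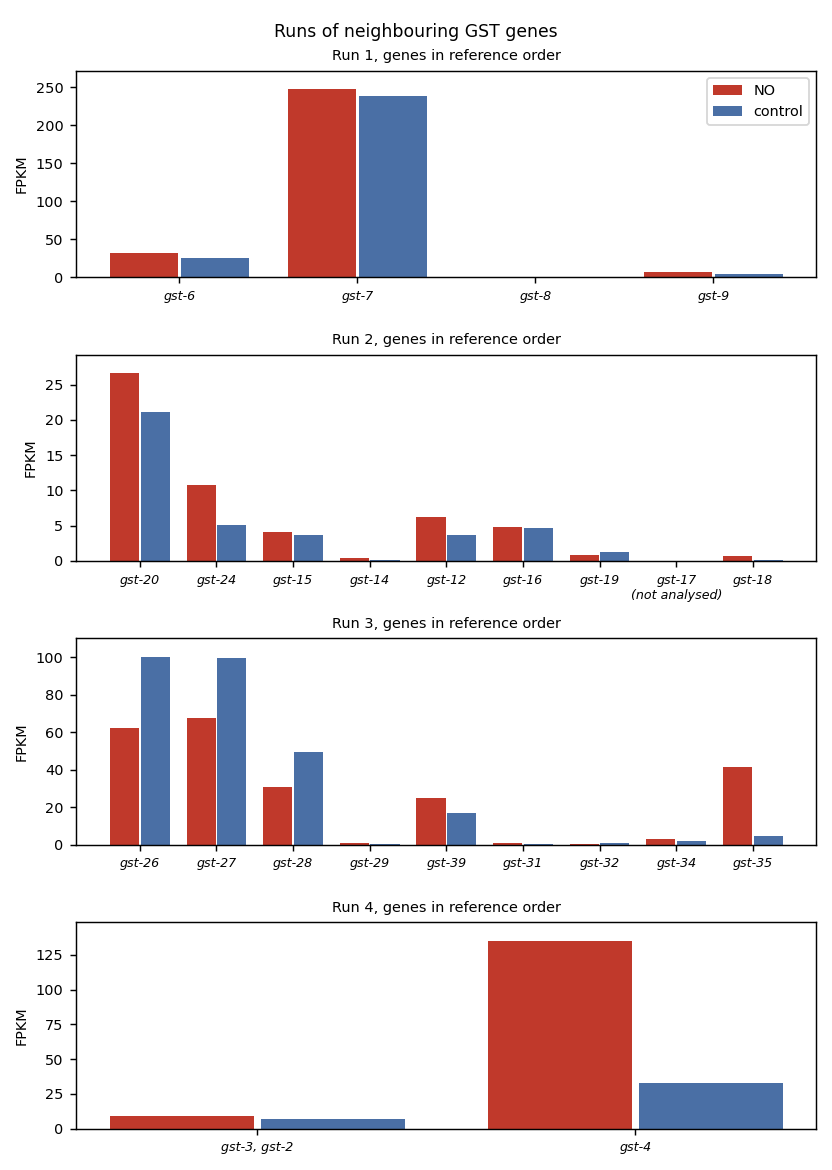
Deposited FPKM of GST genes in the 4 runs of neighbouring genes, in reference order, with a bar for NO left of a bar for control. The gst-35 bar is 41.7 after NO and 4.55 in control at the end of a run whose tallest bars, gst-26 and gst-27, are lower after NO.

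The 10 loci with a mean under 1 FPKM gave 0 calls, as did all 2277 loci of that range. Of the 10, 9 were listed higher after NO, where 66.4% of all loci in the range had a ratio above 0. Their errors were wide, with a median SE of 1.25 on the log2 scale. gst-8 had 0.394 FPKM after NO against a deposited control value of 1.81e-05 FPKM, and its log2 fold of 14.4 had an SE of 125, so that fold carries no information. gst-25 had 1.37 FPKM after NO and 0.19 FPKM in control, with an SE of 8.03 on the log2 scale. gst-18, gst-14, gst-31, gst-29 and gst-23 were at 0.464 to 0.964 FPKM after NO and 0.107 to 0.758 FPKM in control. gst-32 was the 1 lower member of this group, at 0.277 FPKM after NO and 0.822 FPKM in control. Some better expressed members also had little precision, such as gst-9 at 6.02 FPKM after NO and 3.67 FPKM in control, with an SE of 2.40. The members not given singly above (gst-6, gst-11, gst-12, gst-15, gst-16, gst-19, gst-20, gst-22, gst-33, gst-40, gst-41 and gst-44) had log2 folds between -0.61 for gst-19 and 0.79 for gst-12, none with an unadjusted p under 0.05.

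Genes that supply and remove the family's substrate were read beside it, where 0.399% of all loci were called in either direction. At an unadjusted p of 0.05, 2.75% of all loci were higher and 0.338% lower. At these shares, 0 calls in lists this short says nothing particular about the listed genes. Of 4 genes for glutathione synthesis and reduction, 0 were called and 0 had an unadjusted p under 0.05, with log2 folds from -0.22 to 0.18. gcs-1, the rate-limiting enzyme of glutathione synthesis and itself a known SKN-1 target, had 70.9 FPKM after NO and 62.8 FPKM in control in the deposited table (log2 fold 0.18, interval -0.58 to 0.93). This interval left out a 2-fold rise, and so did that of gsr-1, the glutathione reductase, at 117.7 FPKM after NO and 137.2 FPKM in control (log2 fold -0.22, interval -0.83 to 0.39). Of 5 genes for gamma-glutamyl transferases, which start the breakdown of conjugates, 0 were called and 0 had an unadjusted p under 0.05. The most abundant of their loci, C53D5.5 joined with imb-3, was at 236.4 FPKM after NO and 248.5 FPKM in control. Among 8 mrp genes, ABC transporters of the class that exports glutathione conjugates, 0 were called. mrp-2 alone had an unadjusted p under 0.05, at 10.2 FPKM after NO and 4.16 FPKM in control (log2 fold 1.29, SE 0.41, unadjusted p = 0.00175, adjusted p = 0.221). Of the more abundant members, mrp-5 had 42.7 FPKM after NO and 30.4 FPKM in control, and mrp-4 had 32.2 FPKM after NO and 44.9 FPKM in control.

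Of 9 regulators of GST expression, 0 were called, where 0.399% of all loci were called in either direction. At an unadjusted p of 0.05 the count was also 0, where 2.75% of all loci were higher and 0.338% lower. At those shares, counts of 0 among 9 genes say nothing particular about the regulators. Their log2 folds lay between -0.14 and 0.10. skn-1 had 93.5 FPKM after NO and 101.9 FPKM in control in the deposited table (log2 fold -0.12, interval -0.96 to 0.71). wdr-23, which encodes the adaptor that targets SKN-1 for degradation, had 36.9 FPKM after NO and 34.5 FPKM in control in the deposited table (log2 fold 0.10, interval -0.69 to 0.88). The intervals of nsy-1, a kinase gene with an SE of 1.95 (-3.81 to 3.83), and of the GATA factor gene elt-3 (-0.88 to 1.03) reached past a 2-fold change. The locus with brap-2, joined with ndx-6 and rsp-4, had the highest level among them, at 265.4 FPKM after NO and 291.7 FPKM in control. SKN-1 protein and its activity are not measured by these RNA levels.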

How the data were processed

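RNA of whole worms was sequenced in 4 samples, 2 NO and 2 control, with the Illumina TruSeq RNA kit, per the labels' protocols. The submitters' processing notes list TopHat2 2.0.2, Cufflinks 2.0.5 and R 2.15.2. Build, annotation and library scaling are not stated there, and no coordinates or sequences are printed. The deposited table gives, per the file headers, an FPKM value per condition, a fold (ratio of NO to control), its log2, a test statistic (a score signed opposite to the fold), a p-value and an adjusted p. FPKM is inferred from Cufflinks and the values, since no unit is named. The table used here gives 1 value per condition and single libraries were not analysed here, so depth is unknown and the count or limma fit allowed for in the design was not made.

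Calls use the deposited adjusted p at 0.05, which matched a Benjamini-Hochberg adjustment over all 16562 loci. The deposited p lay within 0.001 of the normal tail of the statistic in all 15621 loci above 0 in both conditions, so the SE was taken as log2 fold over statistic, and intervals span 1.96 SE. Ratios add 1 FPKM to each condition. The 48 GST names matched 48 of 49 GST genes in RefSeq's WBcel235 table, used for names and neighbours. Exon overlaps come from Ensembl's WBcel235 annotation, in which 12 GST genes overlap another gene and may share reads with it. Members, lists and tests were chosen with earlier results of these data known. Given in full by rule were called members, those with an unadjusted p under 0.05, the 8 most abundant, the omega, kappa and zeta classes, gst-1, gst-10, and loci joined or at 0. gst-24, gst-28, gst-34, gst-39 and the weakly expressed members were added after their values were seen. The work used Python 3.11.15, pandas 2.3.3, numpy 2.4.6 and scipy 1.17.1, and the adjustment was tested on simulated data. Alternatives were other p thresholds, a minimum fold, other filters, pseudocounts and centrings, re-adjustment, and leaving out joined or identical loci.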

Additional observations from a re-analysis of the deposited data

How the results depend on the processing

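The calls of gst-35 and gst-4 met an adjusted p of 0.01 and a minimum fold of 2, as their adjusted p-values and folds given above already imply. Adjustment over fewer loci changed the adjusted p little, to 2.1e-05 for gst-35 and 0.000324 for gst-4. These 3 alternatives were therefore no independent check of the calls. The other 9 of 12 alternatives cannot lose a call of these genes either. gst-30 joined gst-35 and gst-4 at an adjusted p of 0.1 and when p-values were adjusted again without loci under 1 FPKM (3 members each). The median log2 ratio of GST loci stayed between 0.18 (mean of at least 10 FPKM) and 0.29 (no filter). The number of GST loci with a ratio above 0 was 15 of 23 at a mean of at least 10 FPKM, where 34.7% of all loci were above 0. That is a smaller share of GST loci than the 27 of 37 in the main setting. With no filter it was 36 of 47, where all loci had 49%. Centring on loci of like abundance, which sets all loci to 50%, gave 24 of 37. It turned gst-16 (log2 ratio -0.056), gst-44 (-0.082) and gst-41 (-0.081) below 0, values far smaller than their SE. Of 185 values of single genes under alternatives, 181 kept their direction and their side of the threshold. Most of these outcomes were fixed in advance. Only re-adjustment could change the side of the threshold, and only centring could change the direction. Leaving out replicates was not run, because the table holds 1 value per condition. No paired analysis was possible because the columns carry no replicate. The smallest SE among the 37 GST loci was 0.30 on the log2 scale, which limits the changes that can be called.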
